A study of Mus musculus with 19 samples.

Results

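Gene expression was compared between macrophages and Ly6C+ inflammatory monocytes of normal mouse marrow, across all 20998 genes of an Affymetrix MoGene 2.0 ST array table. The 10 arrays compared, chosen by their titles, were 5 labelled macrophages and 5 labelled monocytes, of 19 arrays in the series. The other 9 arrays, 5 of macrophages and 4 of monocytes, held both cell types from mice whose marrow carried metastases, and were used as a second reading of the contrast. All 19 arrays entered the estimate of each gene's spread. Those metastases came from MetBo2, a line picked for growth in bone out of the mouse mammary tumour line Met-1 (itself from a PyMT tumour). Females aged 4 weeks received MetBo2 cells by intracardiac injection, and no treatment followed. For the healthy mice no age, sex, strain or injection is given in the labels, and for neither sort is any marker given beyond Ly6C. Whether each array stands for its own mouse is not stated, so a p-value below reflects how far these samples scatter, which may be technical. "Macrophage arrays" and "monocyte arrays" below are the labels' names, since the markers do not bear out the macrophage label in full.

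Monocytes are made in the marrow from precursors shared with neutrophils, leave through the receptor Ccr2 and become macrophages in tissues or, when Ly6C is lost, patrol the vessels. Marrow also holds resident macrophages, which engulf the nuclei that red cell precursors shed, return iron to them through the exporter Slc40a1, and hold blood-forming cells through the adhesion molecule Vcam1. Dividing, protein-making precursors and resting phagocytes differ in granule, receptor and energy genes, which the lists below follow by role.

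The values are log2 expression values, 1 per gene and array, so a difference of 1 is 2-fold. Array medians of the 10 arrays lay between 4.46 and 4.54. The first principal component of the 10 arrays held 64.1% of the variance and parted the labels, and the second, 8.90%, was led by macrophage replicate 1, at 36.5 against -18.4 to 2.28 for the other macrophage arrays. Pearson correlations across genes ran from 0.981 to 0.990 among macrophage arrays, 0.993 to 0.994 among monocyte arrays and 0.962 to 0.970 between them. The median SD of a gene was 0.198 on macrophage and 0.140 on monocyte arrays, and the median standard error of the difference was 0.113. A floor of 4.23 was set from 1241 olfactory and vomeronasal receptor genes, which blood cells are not known to use, as the 95th percentile of their group means. Where 1 group lay at or below it, a fold is given as "at least", measured from the floor. The number of arrays limits the precision of every value, and levels of different genes are not compared, since probes differ in brightness.

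The macrophage arrays carried some marrow macrophage genes and lacked others. Of 21 listed marrow macrophage markers, 8 were higher on the macrophage arrays, 3 were lower and 10 did not pass, at an adjusted p below 0.05 in limma (a linear model fitted across all genes). Over all genes that threshold called 10.0% higher and 18.0% lower, and over the 11712 genes above the floor in a group 15% higher and 30.8% lower. The iron exporter Slc40a1 read 7.37, 8.25, 8.24, 8.19 and 8.33 on the macrophage arrays and 3.98, 3.87, 4.07, 3.95 and 4.03 on the monocyte arrays. All 5 macrophage arrays lay far above the floor and all 5 monocyte arrays below it, which makes Slc40a1 at least 14.4-fold higher (limma adjusted p = 3.5e-14). Vcam1 read 6.42, 5.92, 6.21, 6.49 and 6.39 against 4.37, 3.85, 4.33, 4.35 and 4.28, a difference of 2.05 ± 0.17 (SE) with no overlap. Spic, the transcription factor of iron-recycling macrophages, rose by 1.37 ± 0.15, the complement subunit C1qb by 1.13 ± 0.24, the efferocytosis receptor Axl by 0.87 ± 0.13 and the mannose receptor Mrc1 by 0.81 ± 0.20. Mrc1 overlapped between the groups.

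The 3 markers that fell are among the most used for macrophages. Adgre1, which encodes F4/80, read 7.90, 7.17, 7.23, 7.52 and 6.86 on the macrophage arrays and from 7.72 to 8.15 on the 5 monocyte arrays (difference -0.63 ± 0.15, limma adjusted p = 0.0024). Macrophage replicate 1 stood among the monocyte arrays, and the other macrophage arrays lay below them. Csf1r, the receptor for the macrophage growth factor, read 10.05, 9.43, 9.32, 9.65 and 8.77 against 10.06, 10.11, 9.81, 9.89 and 9.89, again with replicate 1 at the monocyte level (difference -0.51 ± 0.16). The Csf1r call was lost with quantile normalization and without macrophage replicate 3 or 5 or monocyte replicate 1 or 2, at limma adjusted p from 0.0511 to 0.0769. The endosomal glycoprotein Cd68 fell by 0.69 ± 0.10 on the log2 scale, without overlap. The efferocytosis kinase Mertk (4.46 ± 0.24 against 4.36 ± 0.23, SD, n = 5 arrays each), the sialic acid receptor Siglec1 (5.18 ± 0.39 against 5.36 ± 0.04) and the transcription factor Maf (4.61 ± 0.16 against 4.58 ± 0.26) did not pass. The hemoglobin scavenger receptor Cd163, the lipid-binding Cd5l, the phosphatidylserine receptor Timd4 and the complement receptor Vsig4 had both group means at or below the floor, although Timd4 passed the test (4.12 ± 0.12 against 3.67 ± 0.11), and not without monocyte replicate 4 (limma adjusted p = 0.0536). Macrophage replicate 1 had the highest mean over the 21 markers, 6.13, against 5.72 to 5.88 on the other macrophage arrays and 5.36 to 5.42 on the monocyte arrays. Slc40a1 went the other way, at 7.37 on replicate 1 against 8.19 to 8.33 on the other macrophage arrays. The summed level of the list was 11.5 to 12.1 against 11.9 to 12.1, and overlapped.

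Most Ly6C-high monocyte markers were lower on the macrophage arrays: 11 of 16 fell, 3 were higher and 2 did not pass. The clotting factor subunit F13a1 read 9.54, 8.72, 8.23, 9.03 and 8.58 on the macrophage arrays and 10.97, 11.15, 11.05, 11.02 and 10.93 on the monocyte arrays. That 4.6-fold difference in F13a1 (-2.20 ± 0.17, limma adjusted p = 9.55e-10) left every macrophage array below every monocyte array. The proteoglycan Vcan fell by 2.25 ± 0.26, fibronectin, Fn1, by 1.67 ± 0.15 and the tetraspan gene Ms4a4c by 1.41 ± 0.15. Ccr2 itself fell by 0.83 ± 0.12. Ly6c2, the gene of the sort marker, was high on both: 11.54, 12.09, 11.91, 11.88 and 12.21 against 12.34, 12.20, 12.39, 12.23 and 12.18. The groups overlapped and the Ly6c2 difference of -0.34 ± 0.11 passed (limma adjusted p = 0.025). Ly6c2 was at or close to the highest value of the monocyte arrays (12.3 to 12.4), where differences may be compressed, so its size is uncertain. Without macrophage replicate 1 or monocyte replicate 1 or 3 Ly6c2 did not pass, at limma adjusted p of 0.084, 0.0557 and 0.0661. The 3 markers that rose were the chitinase-like protein Chil3, haptoglobin, Hp, and the neutrophil surface protein Cd177. Granulocytes also make them, and the part of such cells in these rises was not tested.

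**Figure D1:**
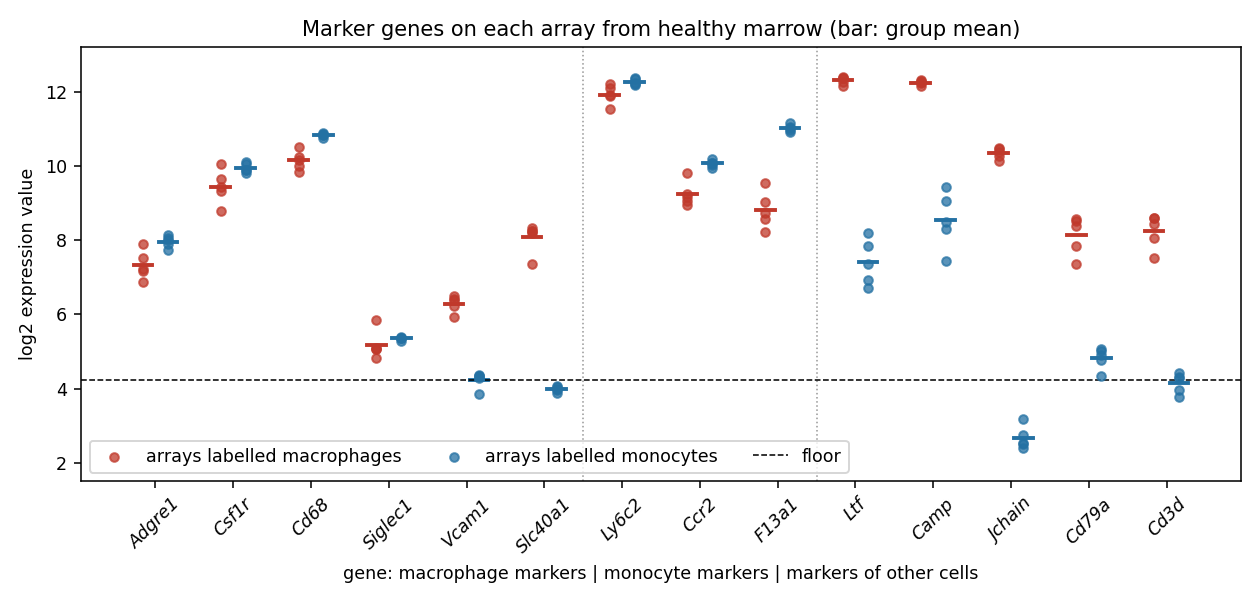
Log2 expression values (vertical axis) of macrophage, monocyte and other-cell marker genes (horizontal axis) on each of the 5 macrophage arrays and 5 monocyte arrays from healthy marrow; points are arrays, bars are group means and the dashed line is the floor of 4.23. Adgre1, Csf1r and Cd68 sit lower on the macrophage arrays, while Slc40a1, Ltf, Jchain and Cd3d sit apart and higher.

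Granule and receptor genes of maturing neutrophils had the largest median difference of the 45 lists. Of 15 measured members, 12 were higher on the macrophage arrays, 1 was lower and 2 did not pass, with a median difference of 3.02 against -0.01 over all genes. Lactoferrin, Ltf, an iron-binding protein of secondary granules, read 12.15, 12.28, 12.40, 12.37 and 12.38 on the macrophage arrays and 7.35, 6.71, 7.83, 6.92 and 8.20 on the monocyte arrays. The macrophage arrays lay within a narrow band near the top of the scale and the monocyte arrays were scattered far below them, a 30.1-fold difference for Ltf (4.91 ± 0.19, limma adjusted p = 1.72e-14). Ltf, Camp, Lcn2 and S100a9 read close to the highest value of any gene on the macrophage arrays (12.4 to 12.5), so their folds may be understated, and saturation was not tested. The siderophore-binding lipocalin Lcn2 was 15.3-fold higher, the cathelicidin Camp 13.1-fold, the citrullinating enzyme Padi4 9.77-fold, the chemokine receptor Cxcr2 8.47-fold, the granule protein Ngp 8.17-fold, the gelatinase Mmp9 8.09-fold and the alarmin subunit S100a9 3.09-fold. Mmp8, neutrophil collagenase, went the other way, at 8.80 ± 0.52 against 10.06 ± 0.22 (-1.27 ± 0.20). The growth factor receptor Csf3r and the resistin-like gene Retnlg did not pass, although Retnlg did without macrophage replicate 1 or monocyte replicate 3 or 5 (log2 differences of 1.06, 0.90 and 0.98). The summed level of the list, on the log2 scale, was 14.6 to 14.8 on the macrophage arrays and 12.2 to 12.6 on the monocyte arrays, with replicate 1 the lowest of the macrophage arrays.

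Primary granule proteases, which are made at an earlier stage, went the opposite way within the list of neutrophil precursors, of which 5 of 11 rose and 5 fell. Cathepsin G, Ctsg, read 6.12, 6.92, 7.04, 7.36 and 7.25 on the macrophage arrays and 10.24, 10.34, 10.46, 10.20 and 10.18 on the monocyte arrays. The groups lay far apart, with Ctsg 10.2-fold lower on the macrophage arrays (-3.35 ± 0.17, limma adjusted p = 1.33e-12). Myeloperoxidase, Mpo, was 3.67-fold lower, the progenitor antigen Cd34 2.82-fold, proteinase 3, Prtn3, 2.57-fold and neutrophil elastase, Elane, 2.11-fold. Higher were Cebpe, the transcription factor that secondary granule genes need (10.1-fold), the lectin Fcnb (9.44-fold), the stem cell factor receptor Kit (3.54-fold), the cell cycle regulator Ms4a3 (2.73-fold) and the repressor Gfi1 (2.14-fold).

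Promoters of 3 of these granule genes are shown because the genes rose together and each holds a match to a C/EBP-type motif, a family to which Cebpe belongs. They run from 250 bases before to 50 after the start of transcription in the RefSeq annotation of GRCm38.p6. The motif searched was TTGCNNAA on either strand, in capitals here:
Ltf, chr9:111019042-111019341, plus strand: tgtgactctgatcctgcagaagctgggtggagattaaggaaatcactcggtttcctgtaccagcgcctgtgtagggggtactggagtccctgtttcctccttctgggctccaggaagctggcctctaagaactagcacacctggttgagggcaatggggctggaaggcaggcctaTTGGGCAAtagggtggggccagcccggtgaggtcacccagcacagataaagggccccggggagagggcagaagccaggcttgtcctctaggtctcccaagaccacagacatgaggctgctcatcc
Ngp, chr9:110419558-110419857, plus strand: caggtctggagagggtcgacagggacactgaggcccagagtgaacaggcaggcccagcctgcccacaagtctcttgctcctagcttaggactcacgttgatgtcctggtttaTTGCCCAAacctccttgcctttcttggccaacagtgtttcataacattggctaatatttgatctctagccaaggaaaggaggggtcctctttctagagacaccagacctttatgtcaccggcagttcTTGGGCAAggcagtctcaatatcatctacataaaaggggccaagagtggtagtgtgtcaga
Lcn2, chr2:32387690-32387989, minus strand: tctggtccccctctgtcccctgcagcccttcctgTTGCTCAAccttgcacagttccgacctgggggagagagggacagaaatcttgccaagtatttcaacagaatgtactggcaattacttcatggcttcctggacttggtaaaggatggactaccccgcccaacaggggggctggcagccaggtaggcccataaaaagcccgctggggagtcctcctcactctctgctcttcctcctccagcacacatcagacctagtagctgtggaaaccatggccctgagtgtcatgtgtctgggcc
The motif, chosen after the values were seen, lay in the promoters of 6 of the 14 list members that matched the RefSeq table (42.9%), against 12.2% of all 27025 genes in it. Besides the 3 genes shown these were S100a9, Mmp8 and Retnlg, of which Mmp8 fell and Retnlg did not pass, while Camp, which rose, holds no match in this window. A match is a run of letters and was not tested for binding.

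Genes of lymphoid and plasma cells were higher on the macrophage arrays. The joining chain of secreted antibodies, Jchain, read 10.27, 10.48, 10.39, 10.45 and 10.13 against 3.19, 2.40, 2.51, 2.53 and 2.75. Every monocyte array lay below the floor, so Jchain was at least 69.1-fold higher (limma adjusted p = 4.35e-15). Of 10 plasma cell genes 9 were higher, among them the antibody-folding chaperone Mzb1 (10.1-fold) and the coactivator Pou2af1 (at least 10.6-fold). Of 15 genes of the B lineage 13 were higher, led by the antigen receptor subunit Cd79a (9.98-fold), and of 17 T and NK cell genes 11, led by the T cell receptor subunit Cd3d (at least 16.1-fold), granzyme Gzma (at least 9.03-fold) and the NK receptor Klrd1 (at least 7.04-fold). None of these 3 lists had a member that fell. The summed level of the plasma cell list was 11.2 to 11.5 against 9.42 to 9.55, of the B lineage list 9.35 to 10.2 against 8.41 to 8.57, and of the T and NK list 10.1 to 10.6 against 8.62 to 8.72. In arrays of a sort, more cells of a type and more RNA per cell cannot be told apart, and the part of such cells in the other results below was not tested.

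Other lists moved less. Dendritic cell genes had 8 of 15 higher, with the cross-presentation receptor Clec9a 3.7-fold and the lectin Cd209a 2.21-fold higher. Erythroid genes had 7 of 17 higher, led by the globin gene Hba-a2 (4.25-fold), and platelet genes 4 of 13, led by the von Willebrand receptor subunit Gp1bb (6.4-fold). Of 15 eosinophil and basophil genes 7 were higher and 1 lower (4 higher without macrophage replicate 1 or 3 or monocyte replicate 1, 2, 3 or 5), of 15 osteoclast genes 6 and 2, of 16 stromal genes 1 and 0, and of 11 endothelial genes 1 and 1. The shares higher were 53.3% for dendritic, 41.2% for erythroid, 30.8% for platelet, 46.7% for eosinophil and basophil and 40.0% for osteoclast genes. For stromal and endothelial genes they were 6.25% and 9.09%, not above the 10.0% of all genes. Some genes are in more than 1 list, such as Mmp9 in the osteoclast and the maturing neutrophil lists. In the stromal list 12 members, and in the endothelial list 6, had both group means at or below the floor. Hba-a2, Ly6c2, Ear2 and Rnase2a (of which Ear2 was the eosinophil gene that fell) have near-identical relatives whose transcripts the probes may share, so their values are uncertain as to the member.

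Across all genes 5886 passed (28.0%), 2105 higher (10.0%) and 3781 lower (18.0%) on the macrophage arrays. The rises were fewer but larger: of genes changed at least 2-fold, 537 were higher (2.56%) and 431 lower (2.05%), of those changed at least 4-fold 173 were higher and 18 lower, and at least 16-fold 27 and 0. The 5 values of a group did not overlap those of the other for 1510 genes that were higher (7.19%) and 2867 that were lower (13.7%), whether called or not. Of the called genes, 258 were higher with the monocytes at or below the floor, 155 lower with the macrophages there and 527 had both groups there.

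By the naming rule the 15 largest rises were, beside Jchain and Ltf, the calcium-binding granulocyte protein Gca, the transporters Slco4c1 and Abca13, the granule protein Olfm4, the acute-phase protein Orm1, the oxidised lipoprotein receptor Olr1, the nuclear envelope protein Syne1, Ankrd22, Wfdc21, the integrin-like Itgb2l, Lrg1, the membrane protease Mmp25 and the tetraspanin Cd63. For Jchain, Gca, Slco4c1, Abca13, Syne1, Ankrd22 and Itgb2l the monocyte mean was at or below the floor, so their order is not known. Olfm4 read 10.22, 10.76, 10.98, 10.85 and 10.68 against 5.55, 4.62, 5.96, 4.89 and 5.95, a 39.6-fold difference. Cd63, a lysosome and granule membrane protein, read 10.42, 10.80, 10.86, 10.72 and 11.05 against 6.46, 6.12, 6.41, 6.05 and 6.18, a 23.0-fold difference. In both genes the groups lay far apart compared with the spread within them.

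The 15 largest falls were Ctsg, the ribonuclease Rnase2a, the glutamate receptor subunit Gria3, the hepatocyte growth factor receptor Met, the sulfate-activating enzyme Papss2, the uridine kinase Uck2, the integrins Itga1 and Itga8, Vcan, F13a1, the acyltransferase Mboat1, the transcription factor Tfec, Nt5dc2, the glutaminyl cyclase Qpct and the lectin-like receptor Klrb1f. Met read 5.82, 5.36, 5.24, 4.85 and 5.43 on the macrophage arrays and 8.19, 8.48, 8.32, 8.23 and 8.32 on the monocyte arrays. The groups lay far apart, with Met 7.82-fold lower on the macrophage arrays (-2.97 ± 0.15, limma adjusted p = 1.38e-12). Gria3 was 7.93-fold lower and Uck2 6.06-fold lower, and Papss2, at the floor on the macrophage arrays, at least 6.34-fold lower.

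**Figure D2:**
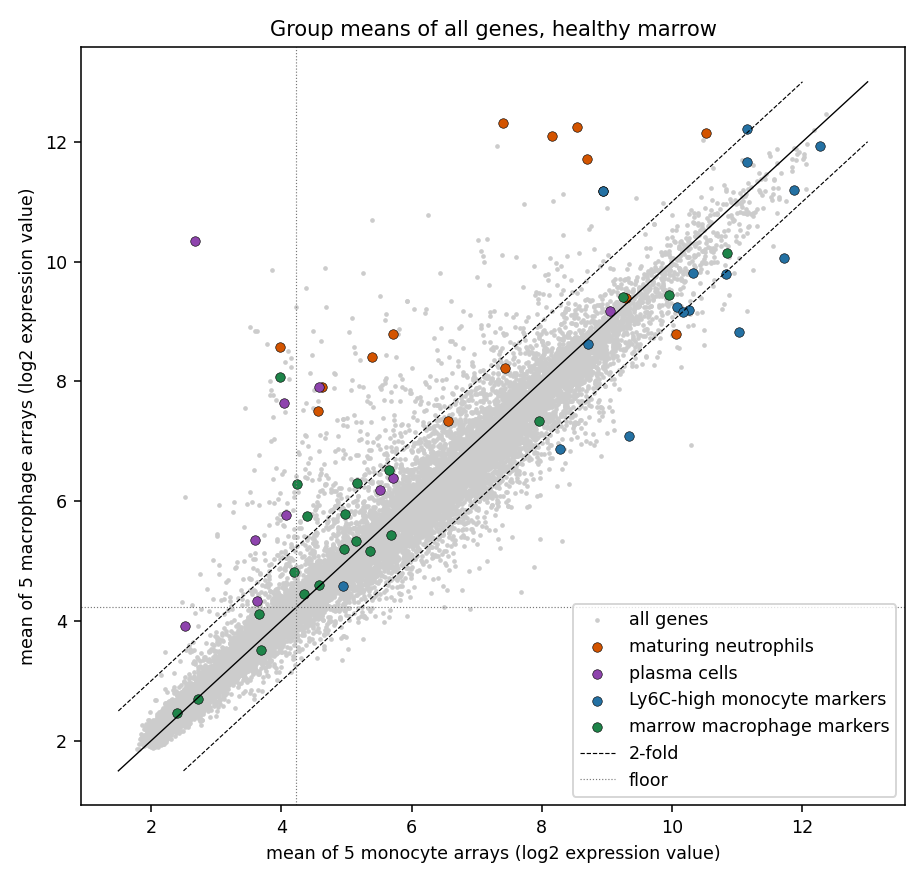
Mean log2 expression value of each gene over the 5 monocyte arrays (horizontal axis) and the 5 macrophage arrays (vertical axis) of healthy marrow, with 4 marker lists in colour, the line of equal values, dashed lines at 2-fold and dotted lines at the floor of 4.23. Most maturing neutrophil genes stand above the upper dashed line, up to the 12.32 of Ltf, while most Ly6C-high markers lie below the line of equal values.

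Surface receptors moved both ways. Over the 8 receptor lists, 42 of 139 measured genes were higher on the macrophage arrays (30.2%), 34 were lower (24.5%) and 63 did not pass. Of the 139, 120 were above the floor in a group, and of all such genes 15% were higher and 30.8% lower. The share that fell was thus below that of genes at large. The lists also hold genes whose proteins act inside the cell, such as Ciita, Nod1, Nod2, Tlr7, Tlr8 and Tlr9. Receptors that draw cells to chemoattractants leaned upward, with 8 of 19 higher (42.1%) and 1, Ccr2, lower (5.26%). Cxcr2, which binds neutrophil chemokines, read 8.20, 8.86, 9.01, 9.01 and 8.92 against 5.72, 5.54, 6.04, 5.07 and 6.22, with no overlap. The formyl peptide receptor Fpr2 was 2.62-fold and the leukotriene B4 receptor Ltb4r1 2.51-fold higher. The fractalkine receptor Cx3cr1 (9.40 ± 0.39 against 9.58 ± 0.22) and the retention receptor Cxcr4 (9.95 ± 0.25 against 9.98 ± 0.16) did not pass.

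Receptors for antibody and complement had 7 of 15 higher (46.7%) and 2 lower (13.3%), against 15% and 30.8% of all genes above the floor in a group. The activating receptor Fcgr4 read 7.05, 7.05, 6.58, 6.58 and 5.43 on the macrophage arrays and 4.41, 4.40, 4.11, 4.16 and 4.71 on the monocyte arrays. Replicate 5 was the lowest macrophage array, the groups did not overlap and the fold was 4.53. Itgax, which encodes CD11c, was at least 4.98-fold higher, the anaphylatoxin receptor C5ar1 2.5-fold and Itgam, which encodes CD11b, 1.89-fold. The inhibitory receptor Fcgr2b fell by 0.37 ± 0.08 and the neonatal Fc receptor Fcgrt by 0.60 ± 0.17, and the shared signalling chain Fcer1g did not pass.

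Scavenger receptors moved both ways, with 5 of 24 higher (20.8%) and 8 lower (33.3%). Over all genes the shares were 10.0% and 18.0%, and over genes above the floor in a group 15% and 30.8%, near those of the list. The fatty acid receptor Cd36 read 9.06, 8.90, 8.45, 8.57 and 7.58 against 4.56, 3.56, 3.85, 4.01 and 4.57, at least 19.4-fold higher (limma adjusted p = 5.74e-12), with replicate 5 again the lowest. The class A scavenger receptor Msr1 went the other way, at 7.51, 6.75, 6.59, 7.13 and 6.71 against 8.65, 9.10, 8.83, 8.73 and 8.71. Its groups did not overlap and Msr1 was 3.64-fold lower (limma adjusted p = 3.68e-10). The lipid sensor Trem2 was 2.21-fold, the collectin Colec12 2.1-fold and the lysosomal Scarb2 1.66-fold lower. The integrin chain Itgav was 1.58-fold higher.

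Of 18 sensors of microbes 7 were lower and 3 higher (5 higher without macrophage replicate 5), and of 26 cytokine receptors 9 were lower and 4 higher. Nearly all members of both lists were above the floor, and these shares lie near the 30.8% and 15% of all such genes. The RNA sensor Tlr8 was 2.64-fold, the flagellin receptor Tlr5 2.62-fold, the endotoxin co-receptor Ly96 2.42-fold and the lectin Clec4d 2.26-fold lower, while the peptidoglycan sensor Nod1 was 1.82-fold higher. The shared interleukin-6 family chain Il6st read 8.92, 8.15, 8.03, 8.32 and 7.76 against 10.23, 10.34, 10.13, 9.95 and 10.04, 3.73-fold lower without overlap, and its partner Il6ra was 2.2-fold lower. Rising were the interleukin-18 receptor Il18r1 (at least 5.8-fold) and Kit. The dendritic growth factor receptor Flt3 (6.33 ± 0.48 against 5.39 ± 0.36) and the decoy receptor Il1r2 (5.59 ± 0.45 against 4.05 ± 0.38) did not pass, though their arrays did not overlap, and neither call was stable. Both passed in a fit of the 10 healthy arrays alone (limma adjusted p = 0.0039 for Flt3 and 5.86e-05 for Il1r2) and with genes below the floor left out, and Flt3 also with quantile normalization or without macrophage replicate 5 (log2 differences of 1.05 and 1.07).

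Adhesion molecules had 4 of 17 higher (23.5%) and 5 lower (29.4%), against 15% and 30.8% of all genes above the floor in a group. Beside Vcam1, the laminin-binding chain Itga6 was 3.04-fold higher, and the collagen-binding chain Itga1 was 4.79-fold, the gut-homing chain Itgb7 2.48-fold and the fibronectin-binding chain Itga5 2.01-fold lower. Genes of MHC class II, which present antigen to helper T cells, had 7 of 9 higher and 1 lower, with a median difference of 0.95. The beta chain H2-Ab1 read 10.54, 9.96, 10.03, 9.91 and 9.93 on the macrophage arrays and 7.68, 7.67, 7.72, 7.82 and 7.10 on the monocyte arrays. All macrophage arrays lay well above the monocyte arrays (H2-Ab1 5.57-fold higher, limma adjusted p = 4.88e-10). The invariant chain Cd74 was 3.06-fold, H2-Aa 2.85-fold and the class II transactivator Ciita 2.29-fold higher, while the peptide-loading H2-DMa fell by 0.44 ± 0.12. B lineage and dendritic cells also express class II genes, and their listed markers were higher on the same arrays, in 13 of 15 and 8 of 15 genes. Their part in the class II values was not tested. Of 11 costimulatory and checkpoint genes 4 rose, with the collagen receptor Lair1 4.46-fold, Cd274, which encodes PD-L1, 4.03-fold and Pdcd1lg2 2.36-fold higher. The costimulator Cd86 fell by 1.03 ± 0.19, with macrophage replicate 1 among the monocyte arrays.

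In the list of 18 monocyte and progenitor factors 6 were higher (33.3%), 6 lower (33.3%) and 6 did not pass. Of all genes above the floor in a group 15% were higher and 30.8% lower, so the share that fell was near that of genes at large. Cebpe and Gfi1 are also in the list of neutrophil precursors. Cebpe, needed for terminal granulocyte differentiation, read 9.81, 10.39, 10.52, 10.51 and 10.58 against 7.15, 6.62, 7.17, 7.08 and 7.09. Irf8, which directs precursors to monocytes, read 8.01, 7.44, 7.16, 7.64 and 6.88 against 9.21, 8.92, 8.92, 8.68 and 8.85, 2.81-fold lower (limma adjusted p = 5.09e-07). Klf4, needed for monocytes, read 7.89, 7.58, 7.36, 7.60 and 7.35 against 9.32, 9.06, 8.61, 8.71 and 8.91, 2.58-fold lower. In all 3 genes the groups stood apart, and for Irf8 and Klf4 replicate 1 was the macrophage array nearest the monocytes.

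Cebpa, the factor of early myeloid precursors, was 2.49-fold, Irf5 1.98-fold and Zeb2 1.94-fold lower. Nr4a1, the factor of Ly6C-low monocytes and an early response gene, was 3.77-fold higher and Egr1 at least 1.73-fold. Spi1, which encodes PU.1, did not pass, at 9.40 ± 0.10 against 9.29 ± 0.04 (limma adjusted p = 0.347). Of 25 factors of tissue macrophages and dendritic cells 10 were higher and 5 lower. The lipid-sensing receptor Pparg read 6.74, 6.70, 6.87, 6.67 and 5.25 against 3.82, 3.87, 3.83, 4.20 and 4.34, at least 4.64-fold higher with replicate 5 the lowest. Bhlhe40, which supports macrophage renewal, was 6.26-fold higher, while Tfec, of the same list, was 4.45-fold and the xenobiotic receptor Ahr 2.6-fold lower.

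**Figure D3:**
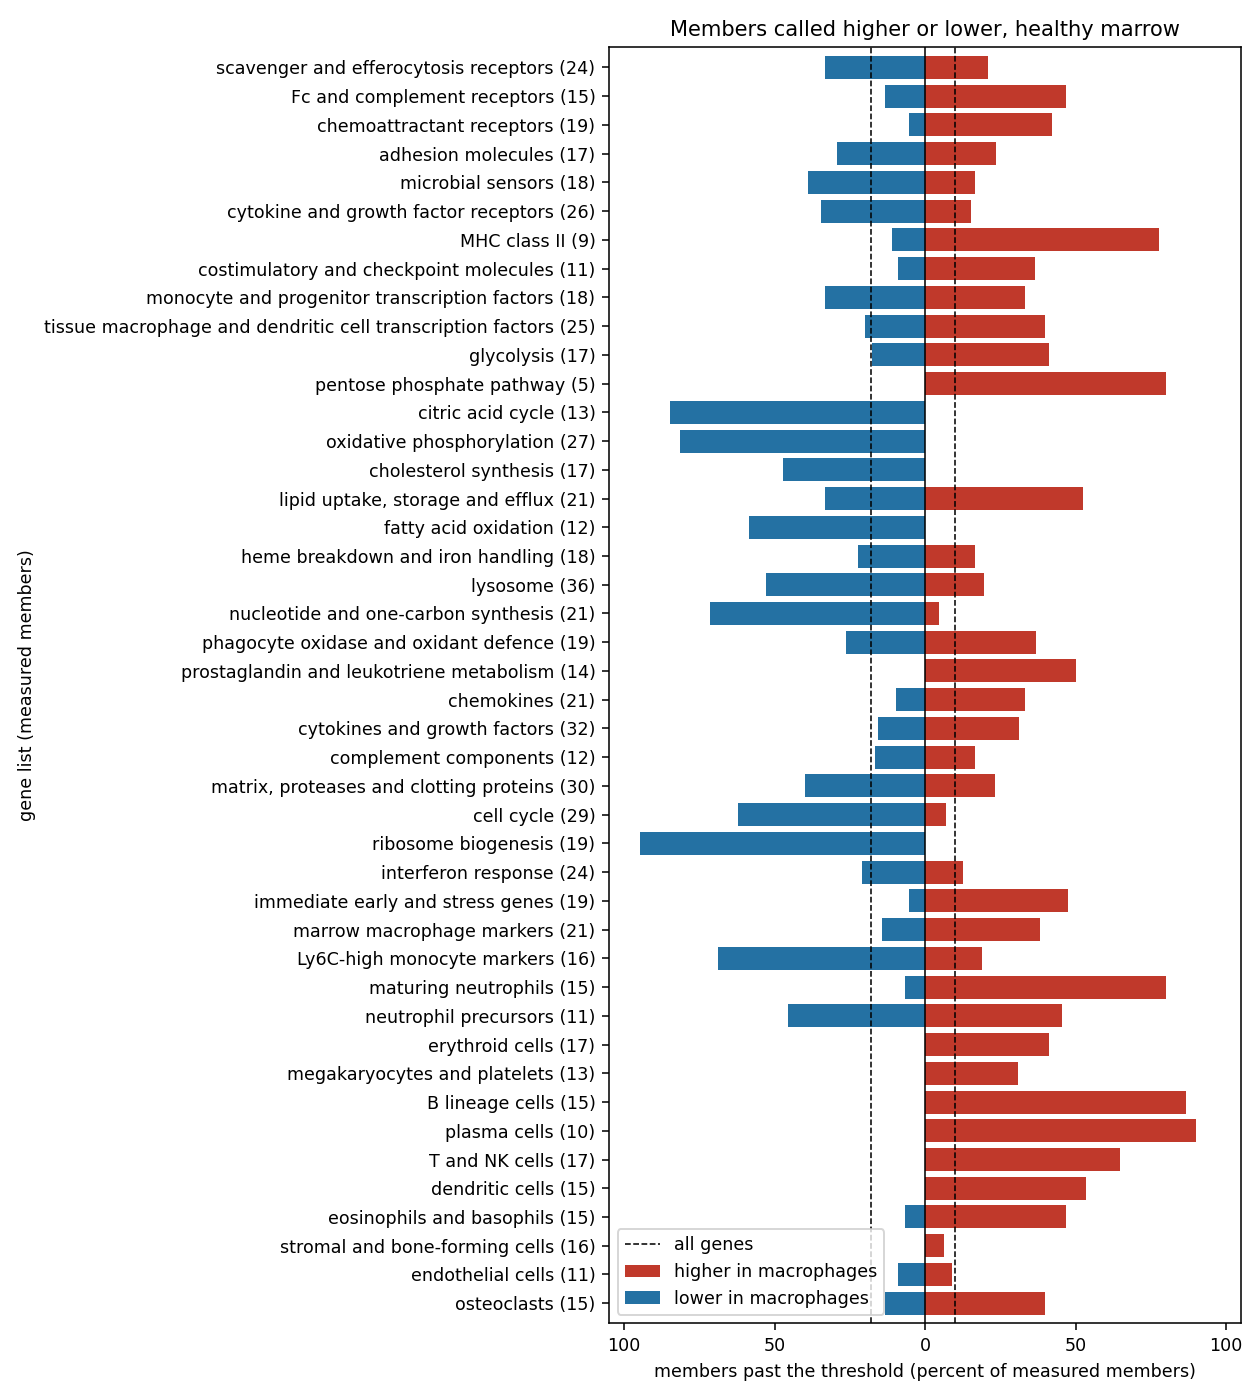
Share of the measured members of each gene list (vertical axis, number measured in brackets) past the threshold, drawn to the right where higher and to the left where lower on the macrophage arrays of healthy marrow, in percent; dashed lines give the shares over all genes, 10.0% and 18.0%. The citric acid cycle, oxidative phosphorylation and ribosome biogenesis lists hold lower calls only, the B lineage, plasma cell and T and NK cell lists higher calls only.

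Over 12 metabolic lists 99 of 217 genes were lower on the macrophage arrays (45.6%), 47 higher (21.7%) and 71 did not pass. Of the 217, 206 were above the floor in a group, and of all such genes 30.8% were lower and 15% higher. Part of the downward lean is thus shared with genes at large. Of 13 citric acid cycle genes 11 were lower and none higher, and of 27 oxidative phosphorylation genes 22 and none, with medians of -0.40 in both. Idh2, the mitochondrial isocitrate dehydrogenase, read 7.35, 6.83, 6.83, 7.33 and 7.24 on the macrophage arrays and 8.73, 8.79, 8.74, 8.72 and 8.91 on the monocyte arrays. No macrophage array reached a monocyte array, and Idh2 was 3.16-fold lower (limma adjusted p = 3.89e-10). Idh3a was 2.36-fold, fumarase, Fh1, 2.12-fold, the electron carrier Cycs 1.83-fold, the complex I subunit Ndufa9 1.73-fold and the ATP synthase subunit Atp5a1 1.63-fold lower. Malate dehydrogenase, Mdh2, did not pass. Fatty acid oxidation had 7 of 12 lower and none higher, led by Hadh (3.42-fold).

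Sugar metabolism leaned the other way. Of 17 glycolysis genes 7 were higher and 3 lower, and of 5 pentose phosphate genes 4 were higher. The glucose carrier Slc2a3 read 6.46, 7.85, 7.74, 7.74 and 7.85 on the macrophage arrays and 4.42, 3.96, 4.59, 4.10 and 4.60 on the monocyte arrays. Replicate 1 was the lowest macrophage array and still lay above all monocyte arrays (Slc2a3 9.16-fold higher, limma adjusted p = 5.23e-10). The regulators Pfkfb3 and Pfkfb4 were 1.99-fold and 1.91-fold higher, hexokinase 3, Hk3, 1.85-fold and transketolase, Tkt, 2.02-fold. The platelet-type phosphofructokinase Pfkp fell by 0.84 ± 0.16, and Gapdh did not pass at 10.32 ± 0.12 against 10.27 ± 0.04.

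Lipid genes showed 11 of 21 higher and 7 lower. Fabp4, a fatty acid binding protein, read 8.08, 7.78, 7.92, 8.18 and 5.85 against 3.08, 3.58, 3.50, 3.17 and 3.90. Fabp4 was at least 10.1-fold higher (limma adjusted p = 1.5e-09). Replicate 5, the macrophage array with the least Cd36, Pparg and Fcgr4, was far below the other macrophage arrays. The triglyceride enzymes Dgat2 and Dgat1 were 5.68-fold and 3.37-fold, lipoprotein lipase, Lpl, 3.96-fold and the acyl-CoA synthetase Acsl1 2.7-fold higher. Fabp5 was 3.63-fold, fatty acid synthase, Fasn, 2.92-fold and the sterol carrier Npc2 1.94-fold lower. Apoe did not pass. Cholesterol synthesis had 8 of 17 lower and none higher, with Fdps 1.75-fold lower.

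Lysosomal genes were mostly lower, 19 of 36, with 7 higher. Cathepsin C, Ctsc, which activates granule proteases, was 2.58-fold, Naglu 1.96-fold, Ctsz 1.92-fold and Ctsa 1.72-fold lower. Cd63, cathepsin K, Ctsk (at least 2.29-fold), and the acid phosphatase Acp5 (2.41-fold) rose. The Ctsa promoter is shown as this start site, 1 of 2 of the gene in the table, holds 2 copies of TCACGTGA, in capitals, the element bound by TFEB-type factors of lysosomal genes (RefSeq, GRCm38.p6):
Ctsa, chr2:164833523-164833822, plus strand: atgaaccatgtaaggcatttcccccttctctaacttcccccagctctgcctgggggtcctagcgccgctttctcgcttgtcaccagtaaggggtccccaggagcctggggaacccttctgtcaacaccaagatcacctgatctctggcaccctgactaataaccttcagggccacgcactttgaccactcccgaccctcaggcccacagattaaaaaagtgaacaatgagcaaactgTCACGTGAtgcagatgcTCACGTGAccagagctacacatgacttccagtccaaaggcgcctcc
The element lay in the promoters of 5 of 28 lysosomal genes in the table (17.9%), against 1.12% of all genes. These were Ctsa and Gla, which were lower, Cln3, which was higher but not past the threshold in 8 of the 10 fits that left out 1 array, and Ctsd and Mcoln1, which did not pass.

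Nucleotide and one-carbon synthesis had 15 of 21 lower and 1, the thymidine kinase Tk1, higher. Tk1 did not pass without macrophage replicate 4 or 5 or monocyte replicate 2. Uck2 read 5.90, 5.12, 5.87, 4.89 and 5.05 against 7.75, 8.19, 8.12, 8.03 and 7.76, and the purine enzyme Atic 7.20, 7.03, 6.61, 7.13 and 7.04 against 8.75, 8.86, 9.03, 8.82 and 8.73. Both had separate groups, and Atic was 3.56-fold lower. Mthfd1 was 2.73-fold, Shmt2 2.4-fold and Psat1 2.39-fold lower. Among 19 oxidase and oxidant defence genes 7 rose and 5 fell, with the oxidase subunit Ncf1 2.38-fold higher and the peroxidase Prdx1 2.83-fold lower. Heme and iron genes had 3 of 18 higher, Slc40a1, the ferritin receptor Ncoa4 (3.01-fold) and Tfrc, and 4 lower, and the heme oxygenase Hmox1 did not pass. These shares, 16.7% and 22.2%, compare with 15% and 30.8% of all genes above the floor in a group.

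Of 14 prostaglandin and leukotriene genes, 7 rose and none fell. Arachidonate 5-lipoxygenase, Alox5, read 8.95, 8.98, 9.38, 9.41 and 9.34 on the macrophage arrays and from 5.84 to 6.20 on the 5 monocyte arrays. The groups lay far apart (Alox5 8.98-fold higher, limma adjusted p = 5.35e-13). Lta4h, which makes leukotriene B4, was 4.13-fold, the cyclooxygenase Ptgs1 3.9-fold and the prostaglandin-degrading Hpgd 2.6-fold higher. The lipoxygenase partner Alox5ap did not pass, at 11.37 ± 0.12 against 11.37 ± 0.05.

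**Figure D4:**
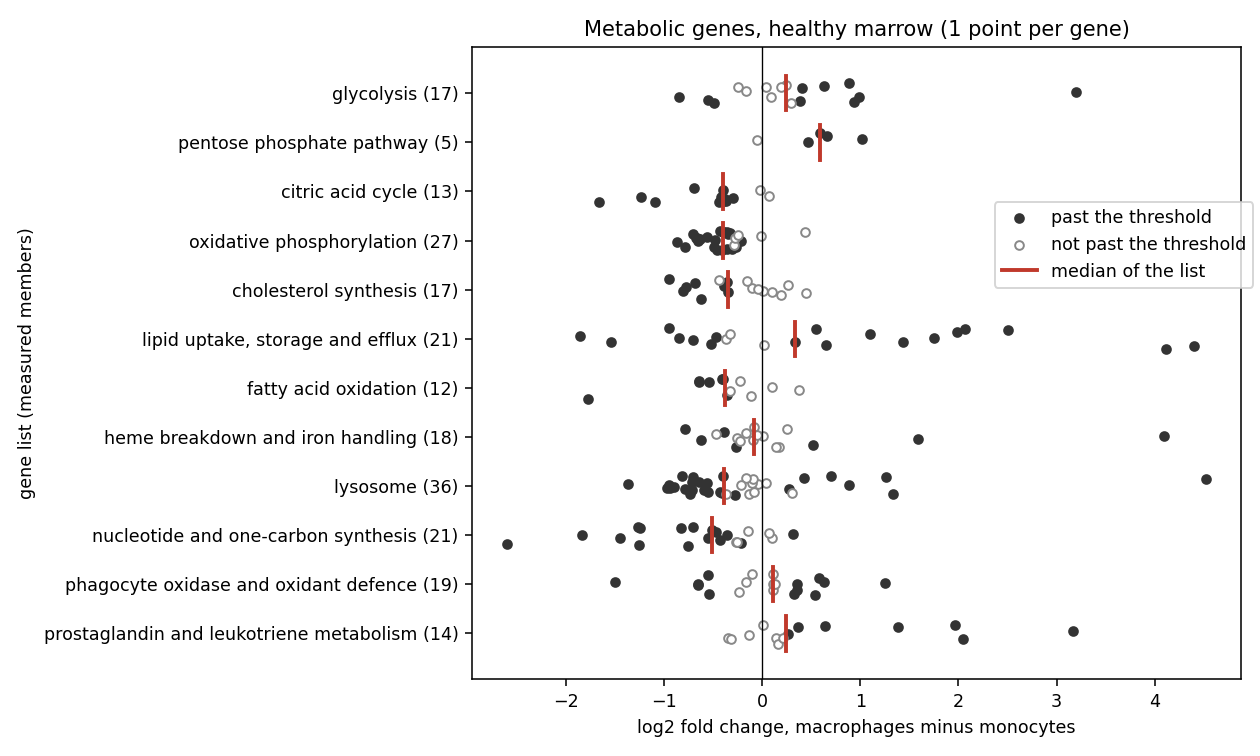
Log2 fold change of each metabolic gene, macrophages minus monocytes in healthy marrow (horizontal axis), by list (vertical axis, number measured in brackets); filled points passed the threshold, open points did not and red bars are list medians. Citric acid cycle and oxidative phosphorylation genes gather left of 0 at a median of -0.40, while lipid genes spread from -1.86 for Fabp5 to 4.40 for Cd36.

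Secreted proteins differed by kind. Over 4 lists 26 of 95 genes were higher on the macrophage arrays (27.4%) and 21 lower (22.1%), against 10.0% and 18.0% over all genes. Of the 95, 28 had both groups at or below the floor. Of all genes above the floor in a group 15% were higher and 30.8% lower, so the share that fell was not raised against those. Of 21 chemokines 7 rose and 2 fell. The lymphocyte-type chemokine Ccl5 read 8.59, 9.14, 8.74, 9.18 and 8.45 against 5.23, 4.52, 4.62, 5.76 and 5.08, a 13.7-fold difference (limma adjusted p = 3.89e-10) with no overlap. Xcl1, made by NK and T cells, was 4.97-fold, Ccl3 3.54-fold, the interferon-induced Cxcl9 3.2-fold and Ccl4 2.59-fold higher, beside the T and NK cell genes given above. The myeloid chemokines Ccl9 and Ccl6 were 2.02-fold and 1.95-fold lower. The Ccr2 ligand Ccl2 did not pass (5.21 ± 0.64 against 4.90 ± 0.24).

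Cytokines and growth factors had 10 of 32 higher and 5 lower. The B cell survival factor Tnfsf13b, which encodes BAFF, read 8.17, 8.61, 8.84, 8.63 and 8.60 against 5.38, 5.02, 5.04, 5.07 and 5.07, an 11.0-fold difference. Tumour necrosis factor, Tnf, read 8.87, 9.12, 9.18, 9.11 and 9.30 against 6.83, 6.98, 6.44, 6.97 and 7.30 (4.63-fold, limma adjusted p = 1.58e-10). In both genes all macrophage arrays lay above all monocyte arrays. The vessel growth factor Vegfa was 4.98-fold, Il1b 3.03-fold and the interleukin-18 inhibitor Il18bp 2.62-fold higher. The efferocytosis ligand Pros1 was 2.38-fold, Mif 2.05-fold, progranulin, Grn, 1.5-fold and Tgfb1 1.5-fold lower. Interleukin-18 itself, Il18, passed as lower only without macrophage replicate 1, at a log2 difference of -0.72.

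Matrix, protease and clotting genes had 12 of 30 lower and 7 higher. Fn1 read 10.68, 9.74, 9.60, 10.32 and 9.93 on the macrophage arrays and 11.74, 11.78, 11.69, 11.65 and 11.74 on the monocyte arrays, 3.18-fold lower with no overlap. The galectin Lgals1 was 3.88-fold, the matrix protein Tgfbi 2.95-fold, clotting factor X, F10, 2.57-fold and osteopontin, Spp1, 2.39-fold lower. Mmp9 read 7.40, 8.39, 8.84, 8.95 and 8.50 against 5.25, 5.13, 5.69, 5.24 and 5.69, with replicate 1 the lowest macrophage array. The urokinase Plau was 2.26-fold and clotting factor V, F5, 2.42-fold higher. Of 12 complement genes 2 rose and 2 fell (1 fell without macrophage replicate 2 or 5 or monocyte replicate 2), with properdin, Cfp, 2.18-fold lower and C3 not past the threshold. These shares, 16.7% each, compare with 10.0% higher and 18.0% lower over all genes.

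Of 19 ribosome biogenesis genes 18 fell and none rose, with a median of -0.55. The methyltransferase fibrillarin, Fbl, read 9.04, 9.05, 8.62, 8.65 and 8.55 against 9.92, 10.10, 10.20, 9.96 and 10.03, 2.4-fold lower (limma adjusted p = 1.2e-07). No macrophage array reached a monocyte array. Of 29 cell cycle genes 18 were lower and 2 higher. The mitotic kinase Aurkb read 6.75, 7.69, 7.55, 7.38 and 8.10 against 8.80, 8.78, 9.11, 8.84 and 8.88, 2.62-fold lower, and the cyclin Ccnb1 was 2.11-fold lower. The replication genes Pcna (10.61 ± 0.23 against 10.39 ± 0.06) and Mcm4 (8.48 ± 0.29 against 8.48 ± 0.08) did not pass, though Pcna did without macrophage replicate 1 (log2 difference 0.31), and the origin-licensing Cdc6 rose by 0.50 ± 0.13. The mean of the list was lowest on macrophage replicate 1, at 7.50, and 8.21 on the highest macrophage array, against 8.25 to 8.48 on the monocyte arrays.

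The same contrast was read in the 9 arrays from metastatic marrow, which share no array with the healthy comparison. Both contrasts came from 1 fit of all 19 arrays with a shared estimate of each gene's spread. Passing in both is therefore not fully independent. There 5563 genes passed (26.5%), 2015 higher (9.60%) and 3548 lower (16.9%) on the macrophage arrays. Of the 5563 calls, 4212 were also made in the same direction in healthy marrow and 4 in the opposite one. That is 71.6% of the healthy and 75.7% of the metastatic calls. Of the 968 healthy calls of at least 2-fold (4.61%), 931 (96.2%) passed the same way in metastatic marrow. The log2 difference of Ltf was 5.41 in metastatic and 4.91 in healthy marrow, that of Slc40a1 4.50 and 4.09, of Ctsg -2.82 and -3.35, of Irf8 -1.07 and -1.49 and of Idh2 -1.64 and -1.66. Of the lists, the plasma cell list had 9 of 10 members higher in healthy and 4 in metastatic marrow, and the T and NK cell list 11 and 15 of 17. Such counts do not test a difference between the marrows. The test between the contrasts, given next, called 1 gene of the plasma cell list and 0 of the T and NK cell list.

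A test of the difference between the 2 contrasts called 13 genes (0.0619%). Leaving out 1 healthy array moved that count between 4 and 48, with 48 without macrophage replicate 5, 10 without monocyte replicate 2 and 4 to 8 without any other array. Larger in healthy marrow were the rises of the acute-phase glycoprotein Lrg1 (4.56 against 2.13, difference 2.43 ± 0.25), Wfdc21 (4.61 against 2.56), the interleukin-18 receptor chain Il18rap (3.98 against 2.30), the plasma cell receptor Tnfrsf17 (1.76 against 0.04), the mRNA decay factor Zfp36l1 (1.83 against 0.00) and the glycosyltransferase Gcnt2 (1.11 against -0.07). Smaller or absent in healthy marrow were those of the endothelial lipase Lipg (0.64 against 4.23), the predicted gene Gm5483 (0.01 against 2.76), the nuclease Dnase1l3 (0.23 against 1.63), the kinase Lmtk2 (0.74 against 1.63) and the ubiquitin ligase Nedd4 (3.30 against 4.00). The kinase Fam20c was lower on the macrophage arrays in healthy marrow (-0.45) and higher in metastatic marrow (0.49), and Ms4a8a was lower in both (-0.90 against -1.83). For Lipg, Gm5483 and Dnase1l3 both healthy group means were at or below the floor. All other genes were not shown to differ between the marrows.

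**Figure D5:**
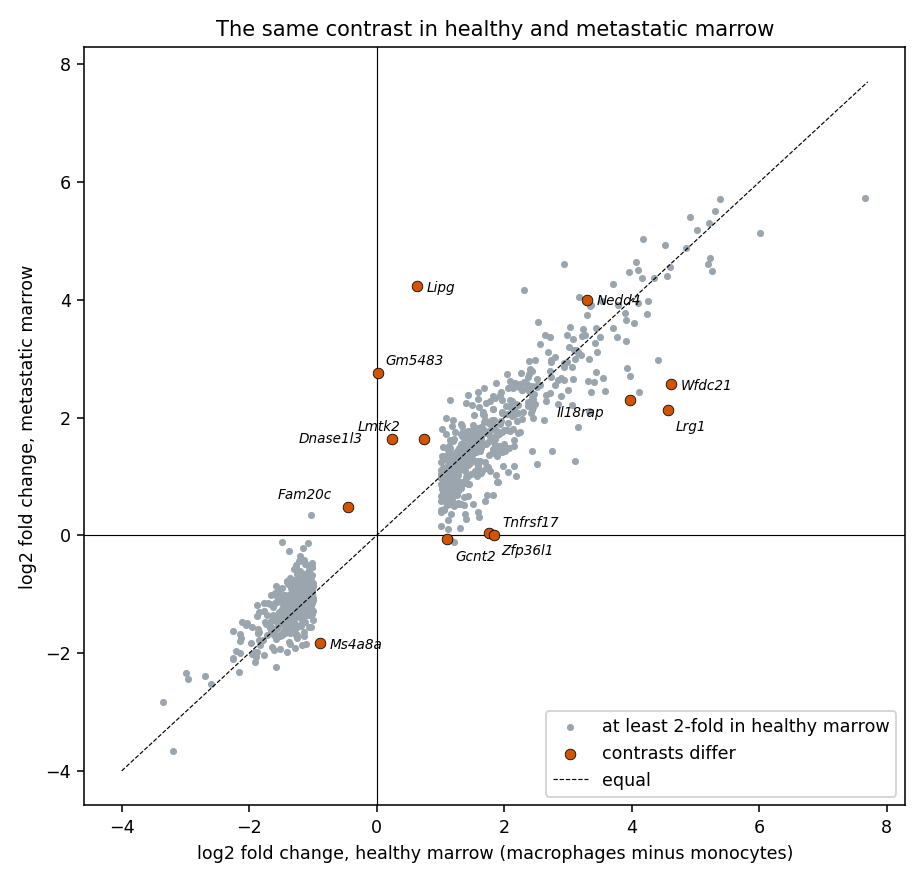
Log2 fold change between macrophage and monocyte arrays in healthy marrow (horizontal axis) and in metastatic marrow (vertical axis) for the 968 genes called at least 2-fold in healthy marrow (grey) and the 13 genes whose 2 contrasts differed (orange, named), with a dashed line of equal values. Grey points lie along the dashed line, while Lipg, at 0.64 and 4.23, and Zfp36l1, at 1.83 and 0.00, lie off it.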

How the data were processed

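Expression in sorted macrophages and Ly6C+ monocytes was measured on 19 Affymetrix MoGene 2.0 ST arrays. The authors deposited log2 values, 1 per gene symbol and array, between 1.38 and 12.6. Per the submitters' processing notes the software was the R package oligo. Its version, the background correction and the normalization were not stated in what was read here. The log2 values were used as deposited. Of the 20998 symbols 20573 are current in RefSeq, 350 only synonyms and 75 neither. Groups came from titles, and replicates were numbered in accession order. No pairing or batch is stated, so neither was modelled.

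Group means were fitted to all 19 arrays with limma 3.58.1 in R 4.3.3 (lmFit, eBayes), and p-values were adjusted by Benjamini-Hochberg over all 20998 genes at a threshold of 0.05. Folds are from log2 differences, and errors are standard errors unless marked SD. The fit was tested on simulated data.

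The comparison and the 45 gene lists were chosen with earlier results of these data known. Lists are described by counts and medians, with no set test. Named were the 15 largest rises and falls among called genes whose arrays did not overlap, leaving out antigen receptor segments, small RNAs and predicted genes; from each list up to 5 called members with the largest change and up to 2 uncalled with the highest mean; and all macrophage and monocyte markers. Not every gene so taken is printed. Some genes are not reported here. Further list members and the genes of the test between the marrows were named after their values were seen. Promoters were read from RefSeq sequences of GRCm38.p6 and searched on both strands. Of the motifs searched, TTGCNNAA was added after the data were seen. Python 3.11.15 with pandas 2.3.3 made the tables.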

Additional observations from a re-analysis of the deposited data

Results flagged for a closer look

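A single array stood apart from the other 4 of its group by Dixon's gap test at the 95% level in 35 of 472 gene and group pairs examined, where chance gives about 1 in 20, or 23.6. Of the 35, 25 were on macrophage arrays, 21 of them on replicate 1, and 10 on monocyte arrays.

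Macrophage replicate 1 is given first, as log2 values beside the lowest and highest of the other 4 arrays. Acsl1 read 8.87 against 9.42 to 9.57, Ccl2 read 6.29 against 4.73 to 5.16 and Cebpe read 9.81 against 10.39 to 10.58. Ciita read 7.55 against 6.56 to 6.71, Cxcr2 read 8.20 against 8.86 to 9.01 and Cxcr4 read 9.50 against 10.02 to 10.10. Fcnb read 10.64 against 10.96 to 11.08, Gp1bb read 6.29 against 7.05 to 7.30 and H2-Ab1 read 10.54 against 9.91 to 10.03. Il18r1 read 6.08 against 6.80 to 7.07, Itgb2l read 7.95 against 8.65 to 8.83 and Ltb4r1 read 8.89 against 9.46 to 9.68. Mdh2 read 9.91 against 10.35 to 10.41, Mmp25 read 8.66 against 9.36 to 9.42 and Olr1 read 8.81 against 9.60 to 9.83. Pfkfb4 read 6.71 against 7.28 to 7.44, S100a9 read 12.05 against 12.16 to 12.20 and Siglec1 read 5.84 against 4.82 to 5.10. Slc2a3 read 6.46 against 7.74 to 7.85, Slc40a1 read 7.37 against 8.19 to 8.33 and Wfdc21 read 11.44 against 11.98 to 12.13.

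On the other arrays the same test marked fewer genes. Cebpe read 6.62 on monocyte replicate 2 against 7.08 to 7.17, Ctsz read 9.84 on monocyte replicate 2 against 9.70 to 9.71 and Fabp4 read 5.85 on macrophage replicate 5 against 7.78 to 8.18. Fdps read 6.26 on macrophage replicate 2 against 6.74 to 6.86, H2-Ab1 read 7.10 on monocyte replicate 5 against 7.67 to 7.82 and Ier3 read 5.85 on monocyte replicate 2 against 5.12 to 5.31. Il1r2 read 6.37 on macrophage replicate 4 against 5.18 to 5.50, Il1r2 read 3.40 on monocyte replicate 1 against 4.03 to 4.29 and Itgb2l read 3.51 on monocyte replicate 3 against 4.07 to 4.14. Ms4a8a read 5.27 on monocyte replicate 4 against 4.88 to 4.96, Pparg read 5.25 on macrophage replicate 5 against 6.67 to 6.87 and Tnfsf13b read 5.38 on monocyte replicate 1 against 5.02 to 5.07. Vcam1 read 3.85 on monocyte replicate 2 against 4.28 to 4.37 and Xcl1 read 4.53 on monocyte replicate 3 against 5.00 to 5.16.

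The 13 genes whose contrast differed between healthy and metastatic marrow had these log2 differences, healthy minus metastatic. Values were Dnase1l3 -1.40 (limma adjusted p = 0.00356), Fam20c -0.94 (limma adjusted p = 0.0392), Gcnt2 1.18 (limma adjusted p = 0.0392) and Gm5483 -2.74 (limma adjusted p = 0.0392). Next came Il18rap 1.68 (limma adjusted p = 0.0397), Lipg -3.60 (limma adjusted p = 0.000263), Lmtk2 -0.89 (limma adjusted p = 0.0415) and Lrg1 2.43 (limma adjusted p = 4.8e-05). Further values were Ms4a8a 0.93 (limma adjusted p = 0.0392), Nedd4 -0.70 (limma adjusted p = 0.0392), Tnfrsf17 1.72 (limma adjusted p = 0.00523) and Wfdc21 2.04 (limma adjusted p = 0.0422). The last was Zfp36l1 1.83 (limma adjusted p = 0.0392).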

How the results depend on the processing

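The number of arrays and the unstated normalization limit all values, and genes near the floor or the top of the scale may have compressed differences. No paired analysis was possible because the labels give no shared replicate numbers. With an added 2-fold minimum the healthy calls numbered 968 (537 higher, 431 lower) and the metastatic calls 969. The 13 genes that differed between the contrasts became 6 with an intensity trend and robust variance, 4 at an adjusted p below 0.01, and 4 to 48 when 1 healthy array was left out. Leaving out 1 array gave 5290 to 5884 healthy calls. Array weights, the filter on low values, quantile normalization and equal array medians kept the healthy and metastatic counts within 1.5 times, and a fit of the 10 healthy arrays alone the healthy counts. Of 236 named genes, 225 kept direction and side of the threshold in every setting that gave them a value and 11 changed a call, none a direction. There were 16 settings, and the filter on low values dropped Cd163, Cd5l, Dnase1l3, Gm5483, Lipg, Timd4 and Vsig4. The 11 genes with a changed call were Cln3, Csf1r, Flt3, Il18, Il1r2, Lipg, Ly6c2, Pcna, Retnlg, Timd4 and Tk1, and the cause was not tested.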

Other observations

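Immediate early and stress genes, which cells switch on within minutes of a stimulus, had 9 of 19 members higher on the macrophage arrays of healthy marrow, 1 lower and 9 not past the threshold. The growth response gene Egr2 read 6.27, 5.52, 5.92, 5.75 and 5.84 on the macrophage arrays and 4.71, 5.03, 4.84, 4.55 and 4.69 on the monocyte arrays, with no overlap (1.09 ± 0.17, SE). The AP-1 subunit Jun was 1.96-fold, the survival gene Ier3 1.79-fold and the stress gene Gadd45b 1.63-fold higher. Fos, the partner of Jun in AP-1, read 5.08, 4.52, 4.82, 4.91 and 4.84 against 5.54, 6.45, 6.81, 5.86 and 5.75 and was 2.37-fold lower (limma adjusted p = 4.62e-05).

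Genes induced by interferon had 3 of 24 members higher (12.5%), 5 lower (20.8%) and 16 not past the threshold. Over all genes the shares were 10.0% and 18.0%. Of the 24, 22 were above the floor in a group, and of all such genes 15% were higher and 30.8% lower. The antiviral Mx2 was at least 2.14-fold, the interferon brake Usp18 1.94-fold and Xaf1 1.9-fold lower, and Ifit2 was 1.88-fold higher. The ubiquitin-like Isg15 did not pass, at 4.74 ± 0.54 against 4.79 ± 0.20 (SD, n = 5 arrays each).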
